A study of Homo sapiens with 9 samples.

Results

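The genes described here encode the proteins of the cytosolic ribosome. They were chosen by symbol alone, as RPL or RPS names followed by a number with an optional closing A, L, L1, AL or X, together with RPLP0, RPLP1, RPLP2 and RPSA. Of 21170 features in the table, 85 were members, 53 of them of the large subunit and 32 of the small subunit. Counts were high enough to test 83 members, 51 of the large and 32 of the small subunit. The members not tested were RPL3L, with 8 counts in all, of which 5 were in mut-FTO replicate 3 and 3 in Vector replicate 3, and RPL10L, with 0 counts in every library. Among the members are 8 paralogs whose symbols end in L or L1, of which 6 were tested.

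HaCaT cells, an immortalized line of human epidermal keratinocytes, were the source of the sequenced poly(A) RNA. The 3 groups of 3 libraries were cells overexpressing FTO (FTO), cells overexpressing a mutant FTO whose demethylase activity is disrupted (mut-FTO), and cells with an empty vector (Vector). The FTO enzyme takes methyl groups off adenosines of RNA. All groups share the HaCaT background, and neither the promoter, the residue changed in the mutant, nor whether a group is a clone is given in the labels. Whether replicates were separate cultures is not stated. The spread that p-values are set against is that of these libraries and may be technical.

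Each library held 32222203 to 37846027 counts. FTO RNA stood at 69.6, 77.0 and 62.6 CPM (counts scaled to the size of the library) in FTO, at 49.7, 82.7 and 64.2 CPM in mut-FTO, and at 18.4, 17.0 and 25.8 CPM in Vector, so that both groups made to express it lay above Vector in every library. The 8 keratinocyte markers summed to 24578 to 25616 CPM in FTO, 27593 to 35455 CPM in mut-FTO and 20045 to 26921 CPM in Vector, whereas the lists of fibroblast, leukocyte, melanocyte and endothelial markers never summed above 109.9 CPM, and THY1, DPT, CD3D, TYR, DCT, PECAM1 and CLDN5 had no count in any library. Other markers of these lists did have counts. CD68 stood at 44.4 to 80.4 CPM, CD14 at 10.6 to 30.3 CPM and COL1A1 at 3.21 to 8.72 CPM over the libraries. A pair of libraries stood apart. In Vector replicate 3, mitochondrially encoded genes took 14.97% of the counts and assembled loci without a gene name 2.50%. In mut-FTO replicate 2 these shares were 7.45% and 3.17%. In the other libraries they were 3.80% to 5.77% and 0.689% to 0.874%. Results are therefore given with and without Vector replicate 3, and, where it matters, without both libraries.

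Each ribosome carries one copy of most ribosomal proteins, so their messages are made in large and roughly matched amounts in growing cells. Most of these messages begin with a terminal oligopyrimidine (TOP) motif, a C at the very first base followed by a run of C and T, through which the growth-regulating kinase mTOR and the RNA-binding protein LARP1 control their translation. RPL5 and RPL11, which reach the large subunit together with an rRNA, also bind MDM2 when not built into ribosomes.

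The start of the message is the shared sequence feature of the family, so it is shown for the members on which the results turn. Each line gives 30 bases before and 20 bases from the transcription start annotated by RefSeq (GRCh38.p14), read 5′ to 3′ on the coding strand, with the run of pyrimidines that begins with a C at the first transcribed base in capitals. The first 5 genes rose in mut-FTO cells (below). So did RPS29 and RPS4X, which have no such run at the annotated start, and of which RPS4X is not shown. RPL36A, RPLP1 and RPS12 are shown because their levels differed widely between libraries of a group (below).
RPL27A, chr11:8682762-8682811, plus strand: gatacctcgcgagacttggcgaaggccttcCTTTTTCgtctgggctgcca
RPL41, chr12:56116603-56116652, plus strand: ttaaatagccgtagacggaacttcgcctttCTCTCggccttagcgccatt
RPS6, chr9:19380217-19380266, minus strand: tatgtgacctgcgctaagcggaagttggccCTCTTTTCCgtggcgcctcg
RPL11, chr1:23691776-23691825, plus strand: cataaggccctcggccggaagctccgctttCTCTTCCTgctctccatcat
RPL37A, chr2:216498814-216498863, plus strand: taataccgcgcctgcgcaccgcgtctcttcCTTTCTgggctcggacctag
RPL36A, chrX:101390981-101391030, plus strand: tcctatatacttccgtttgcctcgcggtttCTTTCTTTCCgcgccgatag
RPLP1, chr15:69452788-69452837, plus strand: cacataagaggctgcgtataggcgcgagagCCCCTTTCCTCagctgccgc
RPS12, chr6:132814539-132814588, plus strand: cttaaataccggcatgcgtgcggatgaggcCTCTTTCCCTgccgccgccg

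The next 3 members have no such run at the annotated start. RPS29 encodes a small zinc-binding protein of the small subunit, and RPS27L and RPL7L1 are paralogs of RPS27 and RPL7.
RPS29, chr14:49598691-49598740, minus strand: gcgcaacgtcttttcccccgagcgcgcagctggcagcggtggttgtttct
RPS27L, chr15:63157458-63157507, minus strand: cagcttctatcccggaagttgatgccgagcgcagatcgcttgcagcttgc
RPL7L1, chr6:42879586-42879635, plus strand: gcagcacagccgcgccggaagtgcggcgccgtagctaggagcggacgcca

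A C at the annotated start followed by at least 4 further pyrimidines, searched on the coding strand alone, was found in 47 of the 68 members with a start in the RefSeq table (69.1%), against 1404 of 27305 genes (5.14%). Among the paralogs it was found in 1 of 6, RPL22L1. RPL11 has 2 annotated starts, and the motif lies at the one shown. A start annotated a few bases away hides the motif, so a miss says nothing about how a message is translated. The 47 tested members with the motif had median log2 fold changes of 0.59 (FTO against Vector) and 0.63 (mut-FTO against Vector), and the 20 tested members without it 0.44 and 0.53. Without Vector replicate 3 these medians were 0.38 and 0.45 with the motif, and 0.33 and 0.41 without it. The medians of the 2 sets are given as descriptions.

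Within the family, levels per transcript length spanned a wide range. Over all libraries the most abundant members of the large subunit were RPLP0 at 4026, RPL13 at 3991 and RPLP1 at 3921 CPM per kilobase. The order of these 3 differed between groups, with RPLP1 highest in FTO and in Vector and lowest of them in mut-FTO. RPLP0 and RPLP1 form the stalk that recruits translation factors. Of the small subunit they were RPS2 at 5379.8, RPS18 at 2409 and RPS3 at 2310.3 CPM per kilobase, and RPS2 was the most abundant member of all. RPL27A, a conserved large-subunit protein, ranked 15 of 83 at 2124 CPM per kilobase. The lowest levels in the small subunit were those of RPS27L at 22.0, RPS28 at 58.9 and RPS29 at 142 CPM per kilobase, and in the large subunit those of RPL22L1 at 16.0, RPL39L at 18.7 and RPL7L1 at 29.7 CPM per kilobase. The 6 tested paralogs had a median of 25.9 CPM per kilobase, and the other 77 tested members a median of 1090.2. All 8 paralogs together made up 0.329% of the counts of the family, and the 10 members with most counts 35.3%. Lengths are medians over annotated protein-coding transcripts and so are rough.

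The family took a larger share of the counts in FTO and in mut-FTO libraries than in Vector libraries. Its summed share was 8.70%, 8.16% and 9.66% of all counts in FTO, 9.60%, 8.22% and 8.33% in mut-FTO, and 7.63%, 6.21% and 4.27% in Vector. Every FTO and mut-FTO library lay above every Vector library, and FTO and mut-FTO libraries overlapped. The means were 8.84% ± 0.760 in FTO, 8.72% ± 0.763 in mut-FTO and 6.03% ± 1.69 in Vector (SD, n = 3 each), and the mean of Vector replicates 1 and 2 alone was 6.92%. FTO was thus 1.47 times and mut-FTO 1.44 times the Vector mean, or 1.28 and 1.26 times without Vector replicate 3. With mitochondrially encoded genes and assembled loci taken out of the totals, the shares were 9.14%, 8.61% and 10.1% in FTO, 10.3%, 9.20% and 8.92% in mut-FTO, and 8.02%, 6.53% and 5.17% in Vector, again with no overlap with Vector. A share has counting error below 0.01 percentage points at this depth (the Wilson 95% interval of the lowest was 4.260 to 4.274), so the spread between libraries sets its precision. In bulk RNA, a larger share of these messages and a smaller amount of other RNA cannot be told apart, nor can fewer cells and less RNA per cell.

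**Figure D1:**
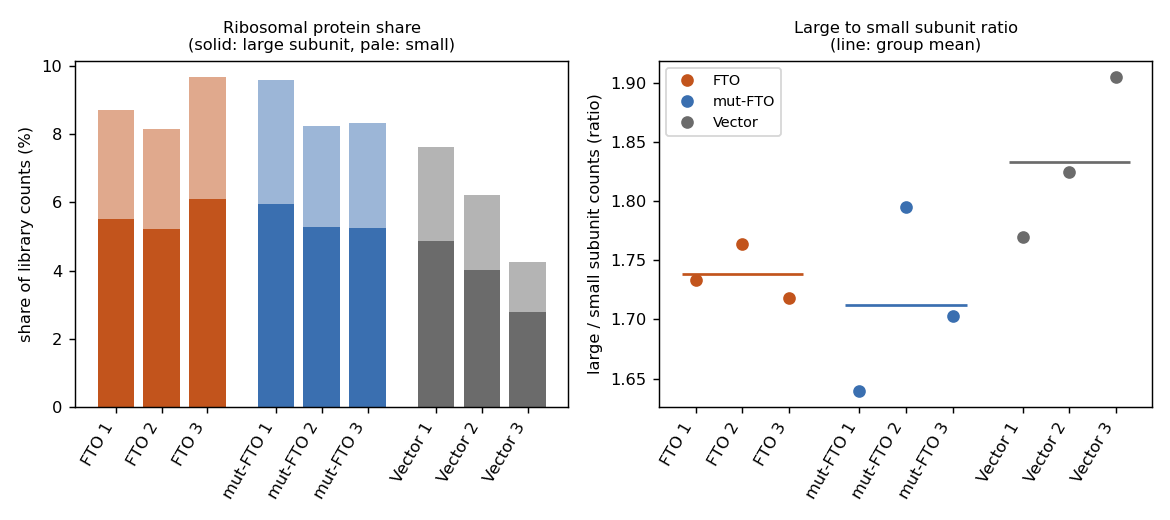
Left, the share of each library's counts (%) taken by ribosomal protein genes, stacked as large subunit (solid) and small subunit (pale), for 3 FTO, 3 mut-FTO and 3 Vector libraries. Right, the ratio of large to small subunit counts per library with the mean of each group as a line, on an axis that does not start at 0; the lowest share (4.27%) and the highest ratio (1.91) are both those of Vector replicate 3.

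Both subunits took part. Large-subunit genes held 5.61% ± 0.457 of the counts in FTO, 5.50% ± 0.401 in mut-FTO and 3.89% ± 1.04 in Vector, and small-subunit genes 3.23% ± 0.303, 3.22% ± 0.367 and 2.14% ± 0.645 (SD, n = 3 each, in the same order of groups). The ratio of large to small subunit counts was 1.73, 1.76 and 1.72 in FTO, 1.64, 1.80 and 1.70 in mut-FTO, and 1.77, 1.82 and 1.91 in Vector. The means were 1.74 ± 0.0230 in FTO, 1.71 ± 0.0785 in mut-FTO and 1.83 ± 0.0683 in Vector (SD, n = 3 each), and 1.80 over Vector replicates 1 and 2. All FTO libraries lay below all Vector libraries, by a narrow margin of 1.764 in FTO replicate 2 against 1.769 in Vector replicate 1, while mut-FTO libraries overlapped both groups.

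In FTO against Vector, most members were higher in FTO but no member passed the threshold of adjusted p = 0.05 over all genes. The median log2 fold change of the 83 tested members was 0.56 and 80 were positive, beside a median of -0.0020 over all 13713 genes tested. By subunit the median was 0.53 for the large and 0.63 for the small subunit. The count of members called was 0 in edgeR's quasi-likelihood test with Benjamini-Hochberg adjustment, where 0.306% of all genes were called higher and 0.438% lower. At an unadjusted p below 0.05, 51 members (33 large, 18 small) were higher and 0 lower, against 4.94% of all genes higher and 6.95% lower. DESeq2 called 7 members higher (0.912% of all genes) and limma-voom 0 (0.277%). In 47 members (30 large, 17 small) every FTO library was above every Vector library, against 10.1% of all genes, and in 0 members was every FTO library below, against 10.9%.

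The members with the lowest p in FTO cells were RPL7, RPL6 and RPL5, all of the large subunit. RPL7, an RNA-binding protein of the large subunit, had 971, 911 and 1119.9 CPM in FTO, against 574, 553 and 428 CPM in Vector. Every FTO library was well above every Vector library. Its log2 fold change was 0.95 (SE 0.21, adjusted p = 0.0709, edgeR's quasi-likelihood test with Benjamini-Hochberg adjustment). RPL6 had 1199, 1189.6 and 1316 CPM in FTO, against 859.5, 785 and 759 CPM in Vector, a log2 fold change of 0.62 (SE 0.15, adjusted p = 0.0933, same edgeR test). RPL5 had 979.9, 932 and 1039 CPM in FTO, against 655, 629.9 and 507 CPM in Vector, a log2 fold change of 0.72 (SE 0.18, adjusted p = 0.113, same edgeR test). In each of these genes the groups did not overlap. The 3 members with a negative fold change were RPL36A, RPS26 and RPL36AL, at -0.30, -0.11 and -0.038 (adjusted p = 0.827, 0.916 and 0.975, edgeR). Each had its highest value of the 6 libraries in Vector replicate 3, and without that library the fold changes were 0.58, 0.15 and 0.46.

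Some members passed without Vector replicate 3, while the median fold change was smaller. The median over members was then 0.37 (0.34 large, 0.37 small) and 81 of 83 were positive. Passing were 7 members, RPL5, RPL6, RPL7, RPL22, RPS3A, RPS4X and RPS6 (edgeR's quasi-likelihood test with Benjamini-Hochberg adjustment), against 1.15% of all genes called higher and 2.26% called lower. RPL7 had a log2 fold change of 0.81 (adjusted p = 0.0271) and RPL6 of 0.56 (adjusted p = 0.0166) in that fit, and RPS4X, an X-linked protein of the small subunit, of 0.56 (adjusted p = 0.0194, all edgeR). Without both Vector replicate 3 and mut-FTO replicate 2, the members called numbered 31 (20 large, 11 small), against 3.36% of all genes. mut-FTO replicate 2 is in neither group compared here but enters the shared estimate of spread, and the median over members stayed at 0.37. With a single library other than Vector replicate 3 left out, the count of members called stayed at 0. In 51 members every FTO library was above Vector replicates 1 and 2, against 23% of all genes.

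In mut-FTO against Vector, 7 members rose and 0 fell. Those that rose were RPL27A, RPL41, RPL11 and RPL37A of the large subunit and RPS6, RPS29 and RPS4X of the small subunit (8.43% of the members tested), against 3.27% of all genes called higher and 4.51% called lower. At an unadjusted p below 0.05, 61 members (39 large, 22 small) were higher, against 10.1% of all genes, and 0 were lower. The median log2 fold change was 0.58 over the members (0.57 large, 0.66 small; 80 positive) and -0.0012 over all genes. DESeq2 called 21 members higher (5.16% of all genes) and limma-voom 11 (3.45%).

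RPL27A had 1743, 2160.0 and 1561 CPM in mut-FTO and 1465, 1441 and 1719 CPM in FTO, against 1263, 971 and 706 CPM in Vector. All libraries of both groups lay above Vector, and mut-FTO replicate 2 was the highest. Its log2 fold change in mut-FTO was 0.89 (SE 0.22, adjusted p = 0.0250, edgeR's quasi-likelihood test with Benjamini-Hochberg adjustment). It passed in 6 of 9 fits that each left out 1 library. In FTO against Vector it was 0.65 (SE 0.22, adjusted p = 0.258, same edgeR test).

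RPL41, the shortest protein of the ribosome, had 1341, 1469 and 962 CPM in mut-FTO, against 901, 585 and 539.6 CPM in Vector (log2 fold change 0.90, SE 0.23, adjusted p = 0.0344, edgeR's quasi-likelihood test). mut-FTO replicate 3 came close to Vector replicate 1, without overlap. RPL37A, a zinc-binding protein of the large subunit, had 639, 699 and 464 CPM in mut-FTO, against 458, 290.0 and 263 CPM in Vector (log2 fold change 0.83, SE 0.23, adjusted p = 0.0425, same edgeR test). It had the same narrow gap between mut-FTO replicate 3 and Vector replicate 1. RPL11, one of the MDM2-binding proteins, had 1086, 1244 and 883 CPM in mut-FTO, against 744, 572 and 701 CPM in Vector (log2 fold change 0.67, SE 0.18, adjusted p = 0.0398, same edgeR test), and the groups did not overlap. RPL41, RPL37A and RPL11 each passed in 3 of 9 fits with a library left out.

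RPS6, the small-subunit protein phosphorylated by S6 kinases downstream of mTOR, had 1192, 1171 and 1069 CPM in mut-FTO, against 832, 729.6 and 743 CPM in Vector. Libraries within each group were close together and the groups lay well apart, with a log2 fold change of 0.57 (SE 0.15, adjusted p = 0.0344, edgeR's quasi-likelihood test with Benjamini-Hochberg adjustment). Even so, RPS6 passed in only 2 of 9 fits that each left out 1 library. RPS4X had 1455, 1506 and 1395 CPM in mut-FTO, against 1024, 892 and 1047 CPM in Vector (log2 fold change 0.56, SE 0.15, adjusted p = 0.0452, same edgeR test). It was likewise free of overlap, and Vector replicate 3 was the highest of its group. RPS29 had 165, 95.9 and 104 CPM in mut-FTO, against 86.0, 42.8 and 31.1 CPM in Vector (log2 fold change 1.19, SE 0.33, adjusted p = 0.0447, same edgeR test). Its fold change had the highest value of all members and rested on a wide spread in both groups: it passed in 1 of 9 fits with a library left out.

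**Figure D2:**
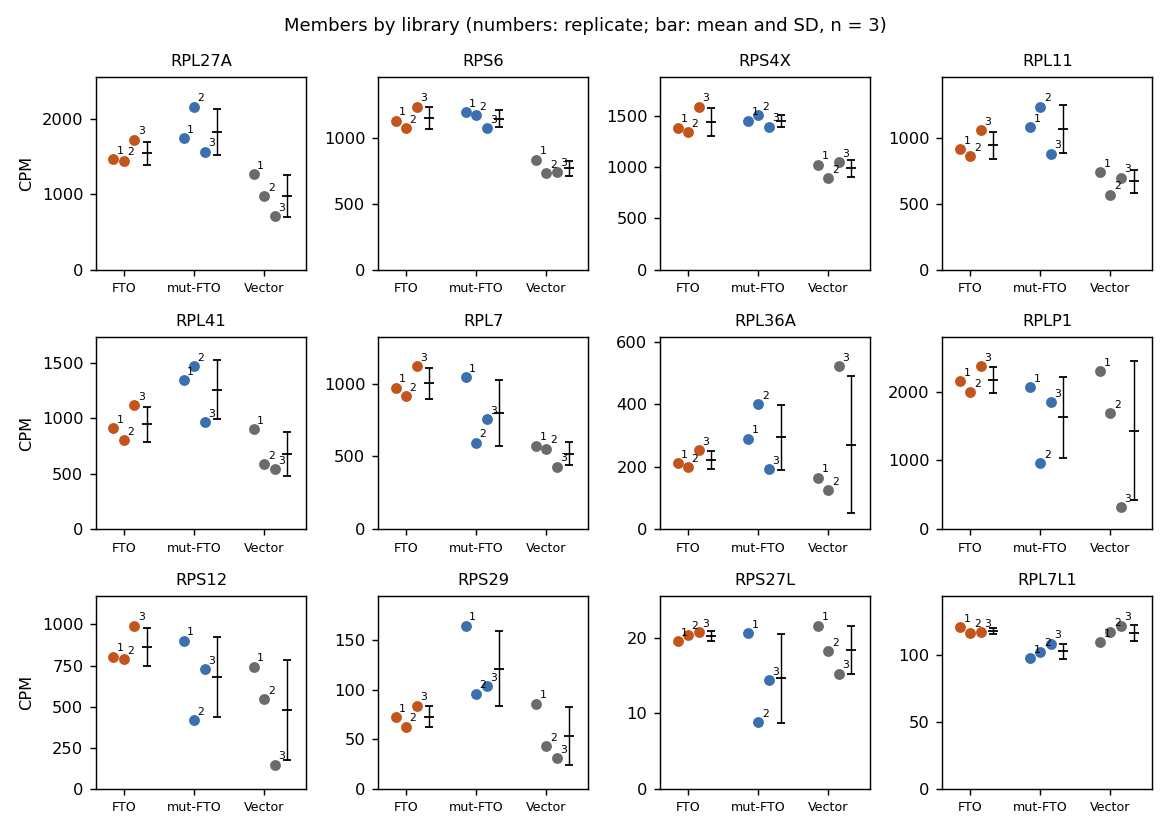
Level (CPM, linear axis from 0) of 12 members in each library, with FTO, mut-FTO and Vector from left to right, replicate numbers beside the points and the mean and SD (n = 3) in black. RPS6 and RPS4X keep FTO and mut-FTO libraries above every Vector library with little spread, whereas RPL36A and RPLP1 are set by Vector replicate 3, at 522 and 322 CPM.

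How many members passed in mut-FTO depended on single libraries. It was 28 (18 large, 10 small) without Vector replicate 3, against 6.56% of all genes higher and 8.41% lower, and 6 of the 7 were among them, all but RPS29, whose log2 fold change was then 0.91 (adjusted p = 0.151, edgeR's quasi-likelihood test with Benjamini-Hochberg adjustment). It was 42 without Vector replicate 1 and 0 without Vector replicate 2, 0 without mut-FTO replicate 1, 0 without mut-FTO replicate 2 and 5 without mut-FTO replicate 3. It was 1 when any of the FTO libraries, which are in neither group compared, was left out. Apart from the fit without Vector replicate 3, these counts have no share of all genes beside them. They therefore cannot tell a change of the family from a change of the whole fit. Without both Vector replicate 3 and mut-FTO replicate 2 it was 39, against 7.65% of all genes. The median fold change of the members was 0.43 without Vector replicate 3 (0.42 large, 0.44 small) and 0.43 without both libraries. In 49 members (32 large, 17 small) every mut-FTO library was above every Vector library, against 12.2% of all genes, and in 1 member, RPL7L1, every mut-FTO library was below, against 11.8%. Without Vector replicate 3 the first count was 54, against 20.4%.

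**Figure D3:**
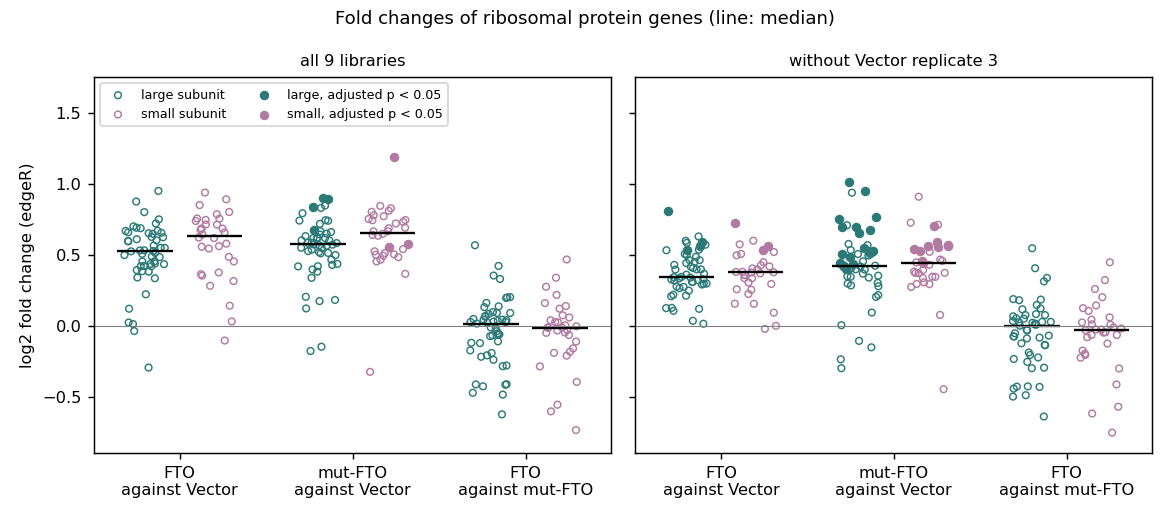
Log2 fold change (edgeR) of the 83 tested members in the 3 comparisons, with all 9 libraries (left) and without Vector replicate 3 (right), split into large and small subunit; black lines are medians and filled points passed adjusted p = 0.05. Both comparisons with Vector lie mostly above 0 (medians 0.56 and 0.58 with all libraries), and FTO against mut-FTO lies around 0 (median -0.013).

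FTO and mut-FTO were compared with each other without the Vector libraries entering the difference, although those libraries enter the shared estimate of spread. Without Vector replicate 3, 0 members were called, against 4.6% of all genes called higher and 5.63% lower. With all 9 libraries the median log2 fold change of the members was -0.013 (0.015 large, -0.014 small), with 39 positive and 44 negative, beside 0.0046 over all genes. No member passed, in either direction (edgeR's quasi-likelihood test with Benjamini-Hochberg adjustment; 1.2% of all genes were called higher and 1.13% lower), nor in DESeq2 or limma-voom, which called 0 members each. At an unadjusted p below 0.05, 0 members were higher and 4 lower in FTO, against 6.69% and 7.3% of all genes. These were RPL37, RPS27, RPS29 and RPL38. RPL37 had 279, 258 and 335 CPM in FTO, against 452, 572 and 320.4 CPM in mut-FTO, with FTO replicate 3 above mut-FTO replicate 3 (log2 fold change -0.62, SE 0.25, adjusted p = 0.266, edgeR). RPS27 had 255, 227 and 306 CPM in FTO, against 387, 532 and 279.8 CPM in mut-FTO (log2 fold change -0.60, SE 0.26, adjusted p = 0.318, edgeR), again with an overlap at replicate 3. Of the members higher in FTO, RPS27L, RPL17 and RPL22L1 had the lowest p, with log2 fold changes of 0.47, 0.35 and 0.57 (adjusted p = 0.470, 0.474 and 0.475, edgeR).

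RPS29 and RPL7L1 were the members without overlap between FTO and mut-FTO. RPS29 had 72.1, 62.8 and 83.8 CPM in FTO, against 165, 95.9 and 104 CPM in mut-FTO, a log2 fold change of -0.74 (SE 0.32, adjusted p = 0.332, edgeR's quasi-likelihood test). RPL7L1, whose product takes part in ribosome assembly, had 120.4, 116 and 117 CPM in FTO, against 97.1, 102 and 108 CPM in mut-FTO, a log2 fold change of 0.20 (SE 0.13, adjusted p = 0.566, same edgeR test). In this comparison 14.8% of all genes were free of overlap with FTO higher and 14.2% with FTO lower, against 1.20% of the members tested (1 member) in each direction. The comparisons with Vector share its 3 libraries, so that their values stand side by side here and their likeness is not counted as a result.

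To find members that moved apart from the rest of the family, the counts were also scaled to the sum of the family in each library. On this scale the median of all genes shifts down in both groups against Vector (to -0.66 on the log2 scale in FTO and -0.69 in mut-FTO), and a change is relative to the family. In FTO against Vector 0 members passed (edgeR's quasi-likelihood test with Benjamini-Hochberg adjustment; 0.153% of all genes were called higher and 12.7% lower), and 4 were lower at an unadjusted p below 0.05, against 46.2% of all genes. These were RPL7L1, RPS26, RPL38 and RPS27, at -0.65, -0.84, -0.54 and -0.64. The members with the lowest p in the other direction were RPS3A, RPL7 and RPL31, at 0.35, 0.32 and 0.32. In mut-FTO against Vector 2 members fell relative to the family, both paralogs, against 29.7% of all genes called lower and 0.948% called higher. RPL7L1 fell by 0.87 on the log2 scale (SE 0.24, adjusted p = 0.0250) and RPS27L by 0.97 (SE 0.29, adjusted p = 0.0326, both edgeR). RPL7L1 stood at 97.1, 102 and 108 CPM in mut-FTO and 109, 117 and 122 CPM in Vector, and RPS27L at 20.7, 8.86 and 14.4 CPM in mut-FTO and 21.6, 18.3 and 15.3 CPM in Vector. Relative to all genes neither passed, with log2 fold changes of -0.18 (adjusted p = 0.496) and -0.33 (adjusted p = 0.529, edgeR). Their fall is relative to a family that is higher in mut-FTO, and is of about the size of the shift of the median gene. With so many genes called against Vector, the adjustment over all genes is mild and does not limit errors among the members alone. RPS27L had an unadjusted p of 0.00614 here, adjusted to 0.0326. With TMM scaling RPS29 had 0.00329 in mut-FTO against Vector, adjusted to 0.0447 (both edgeR's quasi-likelihood test). The members with the lowest p in the other direction were RPS29, RPL27A and RPS16, at 0.63, 0.29 and 0.27 (adjusted p = 0.0629, 0.169 and 0.218, edgeR). In FTO against mut-FTO 0 members passed on this scale (0.277% of all genes were called higher and 0.211% lower), and RPS29 had the lowest p, at -0.71 (adjusted p = 0.346, edgeR). Without mut-FTO replicate 2, 0 members passed on this scale, where 6.32% of all genes were called lower and 0.4% higher.

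The other paralogs were low, and RPL22L1, RPL39L and RPL36AL were uneven between libraries of a group. RPL22L1 had 9.64, 12.4 and 10.3 CPM in FTO, 11.5, 3.80 and 6.47 CPM in mut-FTO, and 9.14, 8.02 and 7.08 CPM in Vector. RPL39L had 15.8, 12.5 and 18.5 CPM in FTO, 14.5, 12.2 and 15.7 CPM in mut-FTO, and 18.6, 11.7 and 6.60 CPM in Vector. RPL26L1 had 27.3, 28.3 and 32.6 CPM in FTO, 31.9, 29.5 and 30.8 CPM in mut-FTO, and 28.8, 24.2 and 17.0 CPM in Vector. None of the 3 passed in any comparison with all 9 libraries, on either scale, and their libraries overlapped between FTO and mut-FTO. RPL36AL, which differs little from RPL36A in its product, had 64.0, 66.2 and 76.0 CPM in FTO, 117, 98.7 and 70.4 CPM in mut-FTO, and 53.5, 44.8 and 113 CPM in Vector, with Vector replicate 3 far above the rest of its group.

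Without Vector replicate 3, 7 members passed on the family scale in mut-FTO against Vector and 3 in FTO against mut-FTO. Of the members tested, 4.82% were called higher and 3.61% lower in mut-FTO against Vector, and 3.61% lower in FTO against mut-FTO. The adjustment over all genes was again mild for the members against Vector, where 26.8% of genes were called lower. In mut-FTO RPL36A, RPL36AL, RPL37 and RPS29 were higher relative to the family, by 0.61, 0.53, 0.55 and 0.53 (adjusted p = 0.0205, 0.0396, 0.0303 and 0.0471, edgeR's quasi-likelihood test), against 2.03% of all genes called higher. RPS27L, RPLP1 and RPL7L1 were lower, at -0.87, -0.70 and -0.58 (adjusted p = 0.00324, 0.00659 and 0.0216, same edgeR test), against 26.8% of all genes. In FTO against mut-FTO, RPL37, RPS27 and RPS29 were lower, at -0.60, -0.58 and -0.71 (adjusted p = 0.0232, 0.0333 and 0.00756, same edgeR test), against 2.95% of all genes. The library left out, Vector replicate 3, is in neither of these groups, and RPS29 was at -0.71 with all 9 libraries too. With mut-FTO replicate 2 left out as well, RPS29 alone passed, at 0.67 in mut-FTO against Vector (adjusted p = 0.0254, against 1.57% of all genes) and -0.86 in FTO against mut-FTO (adjusted p = 0.00500, edgeR, against 1.58% of all genes). In each comparison that is 1.20% of the members tested, below the share of all genes. Its share of the family's counts was 0.0824%, 0.0776% and 0.0869% in FTO, 0.174%, 0.107% and 0.123% in mut-FTO, and 0.114%, 0.0725% and 0.0739% in Vector. All mut-FTO libraries but replicate 2 were above Vector replicate 1, and all FTO libraries were below all mut-FTO libraries.

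The make-up of the family differed between libraries of 1 group, most in Vector replicate 3. Each library's share of each member in the family sum was set against the mean of the other 2 libraries of its group. The SD of these log2 differences over 83 members was 0.085 to 0.094 in FTO libraries, 0.28, 0.44 and 0.25 in mut-FTO replicates 1 to 3, and 0.43, 0.39 and 0.77 in Vector replicates 1 to 3. Vector replicates 1 and 2 are here set against a mean that holds replicate 3, which raises their values. Against each member's median over all 9 libraries, the SD was 0.17, 0.15 and 0.72 in Vector replicates 1 to 3. In mut-FTO replicates 1 to 3 it was then 0.20, 0.46 and 0.13. In Vector replicate 3, 7 members had at least 2-fold the share, namely RPL36A, RPL36AL, RPS26, RPL26, RPS24, RPL28 and RPL37, and 7 had a share at least 2-fold lower, namely RPLP1, RPS12, RPS21, RPS19, RPL13, RPS9 and RPL10. These lists were chosen on that library and carry no test.

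RPL36A, a large-subunit protein whose gene overlaps the read-through locus RPL36A-HNRNPH2, showed the widest shift. It had 211, 198 and 253 CPM in FTO, 289.9, 401 and 192 CPM in mut-FTO, and 165, 125 and 522 CPM in Vector. The read-through locus was at most 11.6 CPM in any library, and in Vector replicate 3 it was at 11.2 CPM. As a share of the family, RPL36A was 1.24% in Vector replicate 3, 0.446% in mut-FTO replicate 2, and 0.211% to 0.307% in the others. RPLP1, of the ribosomal stalk, moved the other way: it had 2157, 1995 and 2373 CPM in FTO, 2068, 964 and 1844 CPM in mut-FTO, and 2294, 1685 and 322 CPM in Vector. RPS12, a small-subunit protein, followed the same pattern at 804, 789 and 993 CPM in FTO, 901, 419 and 727 CPM in mut-FTO, and 743, 546 and 148 CPM in Vector. Their lowest values were those of Vector replicate 3, and the next lowest those of mut-FTO replicate 2.

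The shifts in Vector replicate 3 and mut-FTO replicate 2 were alike in direction for most members but not for all. All 7 members raised at least 2-fold in Vector replicate 3 had a higher share in mut-FTO replicate 2 too (median log2 difference 0.57), and all 7 lowered ones a lower share (median -0.33). Over all 83 members, 54 had the same sign in both libraries, and Pearson's r was 0.551 and Spearman's rho 0.504, given as a description across genes, which are not independent. Of the members lowest in mut-FTO replicate 2, RPS21 and RPLP1 (both -1.03) had lower shares in Vector replicate 3 too. RPL22L1 (-1.20) and RPS27L (-0.98) had higher shares there, by 0.39 and 0.28. With transcript GC content the shift in Vector replicate 3 had r = -0.477 (rho -0.518) and that in mut-FTO replicate 2 r = 0.248 (rho 0.223), so that GC content went with them in opposite directions. With transcript length r was 0.118 (rho 0.014) and 0.037 (rho -0.080). Both libraries are those with most counts in mitochondrially encoded genes and assembled loci, and the part of these in the shifts was not tested.

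**Figure D4:**
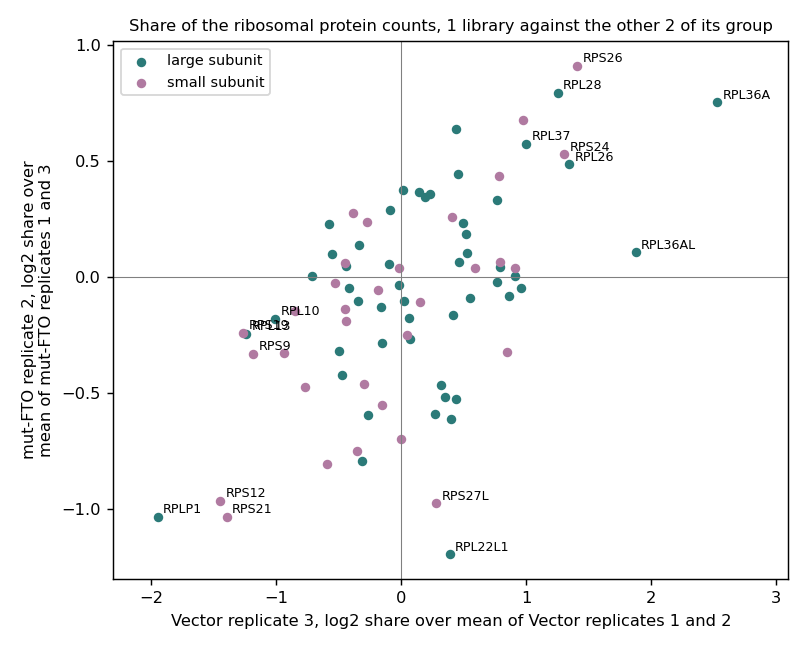
Each point is 1 of 83 members; the x axis is the log2 share of the family sum in Vector replicate 3 over the mean of Vector replicates 1 and 2, the y axis the same for mut-FTO replicate 2 over mut-FTO replicates 1 and 3. RPL36A (2.53 on x) and RPLP1 (-1.95 on x) are at the ends, and 54 of 83 members have the same sign on both axes.

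**Figure D5:**
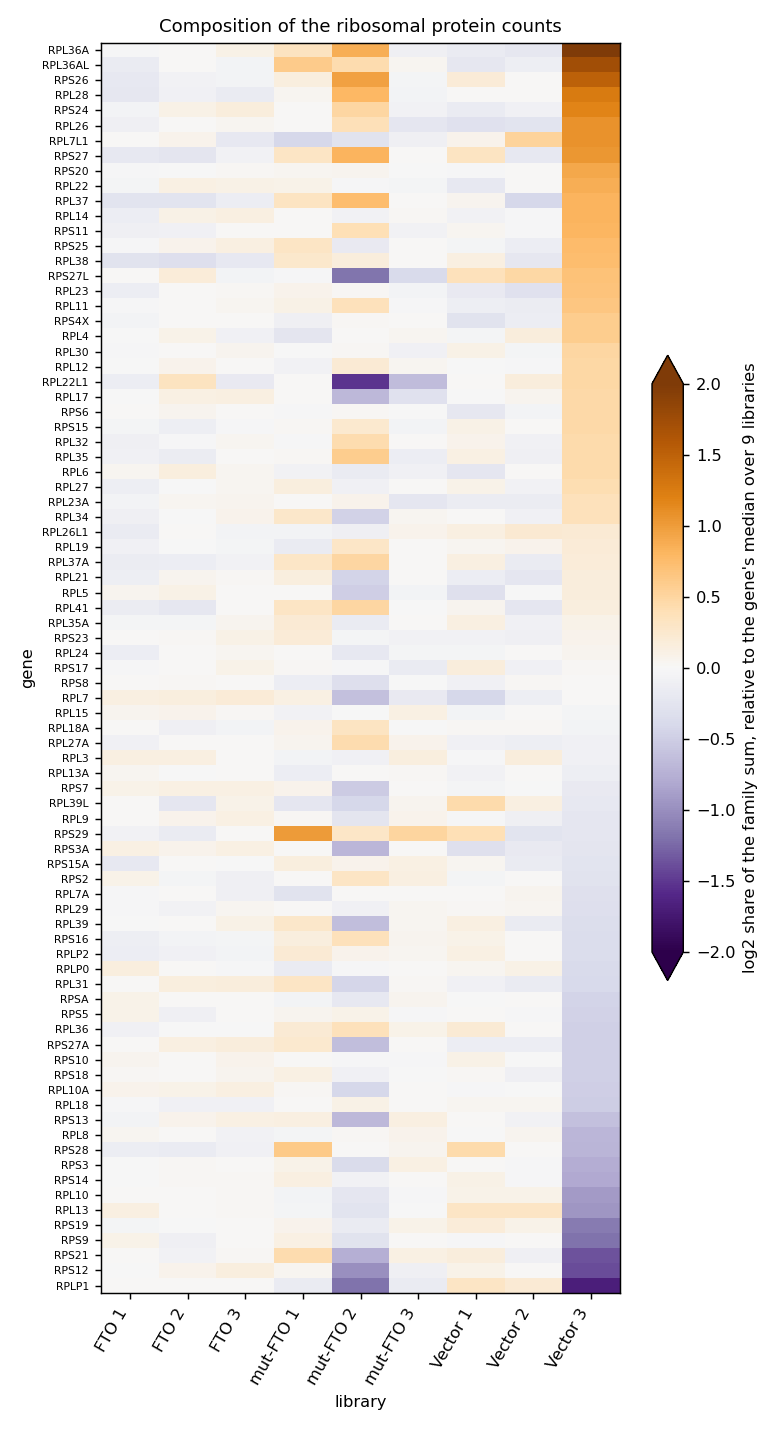
Log2 share of the family sum for 83 members (rows, ordered by Vector replicate 3) in 9 libraries (columns: FTO, mut-FTO, Vector), relative to the gene's median over the libraries, with colours capped at the ends of the scale. FTO libraries are nearly uniform (SD of log2 share differences within the group at most 0.094), and Vector replicate 3 departs most (0.77).

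Genes that work with the ribosome were read beside the family. FAU encodes a ribosomal protein fused to a ubiquitin-like protein, and RACK1 sits on the small subunit. FAU had 499.7, 471 and 572 CPM in FTO, 606, 441 and 505 CPM in mut-FTO, and 528, 362 and 159 CPM in Vector, so that the groups overlapped. RACK1 had 1519, 1424 and 1497 CPM in FTO, 1533, 1781 and 1490.2 CPM in mut-FTO, and 1351, 1121 and 826 CPM in Vector, with every FTO and mut-FTO library above Vector. Neither passed in any comparison with all 9 libraries. Their log2 fold changes in FTO against Vector were 0.56 and 0.43 (adjusted p = 0.517 and 0.405, edgeR's quasi-likelihood test), and in mut-FTO against Vector 0.57 and 0.54 (adjusted p = 0.345 and 0.109, same edgeR test).

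Elongation factors and other genes with TOP messages had lower medians, 0.36 in FTO and 0.37 in mut-FTO against Vector over 17 tested genes. Without Vector replicate 3 these medians were 0.32 and 0.38, closer to the 0.37 and 0.43 of the members in that fit. With all 9 libraries, 0 of the 17 genes passed in FTO against Vector. EEF1A1, the factor that brings tRNA to the ribosome, had 15101, 14159 and 15713 CPM in FTO, 13236, 11730.5 and 14036 CPM in mut-FTO, and 10178, 9699 and 7157 CPM in Vector. FTO libraries were all above Vector, with a log2 fold change of 0.73 (SE 0.18, adjusted p = 0.113, edgeR's quasi-likelihood test with Benjamini-Hochberg adjustment). In mut-FTO against Vector 2 of 17 rose and 1 fell: EIF3L, a subunit of initiation factor eIF3, by 0.65 (SE 0.14, adjusted p = 0.0105), EEF1B2, an exchange factor for EEF1A1, by 0.59 (SE 0.16, adjusted p = 0.0426), and EIF2S3, a subunit of eIF2, at -0.91 (SE 0.14, adjusted p = 0.00151, all edgeR). Of all genes, 3.27% were called higher and 4.51% lower in that fit. EIF2S3 had 135, 137 and 140.1 CPM in FTO, 88.9, 76.5 and 82.6 CPM in mut-FTO, and 143, 159 and 163 CPM in Vector, and it also differed between FTO and mut-FTO (log2 fold change 0.73, adjusted p = 0.0164, edgeR). Without Vector replicate 3, 7 of 17 rose in FTO against Vector, where 1.15% of all genes were called higher. That fit had 7 of 17 higher and 1 lower, EIF2S3, in mut-FTO against Vector, where 6.56% of all genes were called higher and 8.41% lower.

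Factors that assemble ribosomes and the ribosomal proteins of mitochondria had medians nearer 0 than the family's against Vector. Over 38 ribosome biogenesis factors the median log2 fold change was 0.099 in FTO and -0.17 in mut-FTO against Vector, and 0 passed in FTO. In mut-FTO FBL, the methyltransferase of small nucleolar particles, rose by 0.68 (SE 0.18, adjusted p = 0.0317) and UTP4, a factor of small-subunit processing, fell by 0.60 on the log2 scale (SE 0.15, adjusted p = 0.0313, both edgeR's quasi-likelihood test). This 1 of 38 in each direction is no more than the 3.27% of all genes called higher and 4.51% lower. In FTO against mut-FTO the median was 0.26 and 0 passed. Without Vector replicate 3 the median was 0.085 with 0 called in FTO against Vector, -0.042 with 1 higher and 4 lower in mut-FTO against Vector, and 0.25 with 9 higher and 0 lower in FTO against mut-FTO, where 4.6% of all genes were called higher. In mut-FTO against Vector that fit called 6.56% of all genes higher and 8.41% lower. Over 78 mitochondrial ribosomal proteins the medians were 0.29 in FTO and 0.26 in mut-FTO, with 0 called in FTO and 2 in mut-FTO, MRPL35 and MRPS33, both higher. In mut-FTO this was no more than the 3.27% of all genes called higher. Without Vector replicate 3 the medians were 0.15 and 0.14. The 13 mitochondrially encoded genes had a median of -0.95 in FTO against Vector, -0.054 without Vector replicate 3, and 0 of them passed in either fit. In mut-FTO against Vector their median was -0.22 with 0 called, and 0.72 with 11 called higher without that library, against 6.56% of all genes. In FTO against mut-FTO it was -0.71 with 0 called, and -0.72 with all 13 called lower without Vector replicate 3, against 5.63% of all genes.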

How the data were processed

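Poly(A) RNA-seq of 9 HaCaT libraries was taken as the whole-number counts per gene that the authors deposited, without normalization. Per the submitters' processing notes, HISAT2 and StringTie were used. Their build is mm10, of the mouse, but cells and symbols are human. Versions, annotation and strand setting: not given in the sources used. So reads shared with pseudogenes, paralogs, read-through or antisense genes may be misplaced. Columns carry letter codes, matched to groups by letter; telling FTO from mut-FTO rests on the letters alone. No library repeated another (chi-square per degree of freedom 13.0 to 462 within groups).

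The tests used edgeR 4.0.16 (R 4.3.3): filterByExpr by group (minimum count 10, total 15) left 13713 genes, with TMM scaling, 1 robust quasi-likelihood fit over 9 libraries, and Benjamini-Hochberg adjustment over all genes tested, called at 0.05. A second fit used the summed member counts as library size. Standard errors come from the fold change and F. CPM use TMM-scaled sizes; shares within the family use a pseudocount of 0.5. Lengths and GC content are medians over GENCODE 29 protein-coding transcripts. Wilson intervals (95%) cover counting error only.

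The members and lists were chosen with earlier results of these data known. Genes are named by rule: RPL27A, the members of lowest p per comparison, direction and scaling (6 past the threshold, otherwise 3), the 3 most and least abundant per subunit, the paralogs, and the 2 to 4 members of lowest p of each list. RPS4X, RPL38, and the members named for their share shifts or in fits with libraries left out were chosen after their values were seen. Alternatives were RLE factors, library size alone, members left out of the scaling, DESeq2 1.42.0, limma-voom (limma 3.58.1), other filters, 6 libraries, a replicate block and each library left out. Leaving out mitochondrially encoded genes and assembled loci, and both libraries that stood apart on the family scale, was added after seeing the data. The fits were tested on simulated data. Some genes of the lists are not reported here.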

Additional observations from a re-analysis of the deposited data

How the results depend on the processing

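With TMM scaling and each alternative to it, the median fold change of the members was above 0 against Vector. By contrast, the number of members called depended on the fit. Most of these counts are given without the share of all genes called in the same fit. They therefore cannot tell a change of the family from a change of the whole fit. In FTO against Vector, where it was 0, it was 7 with DESeq2, 1 with no filter and 31 without Vector replicate 3 and mut-FTO replicate 2, and 0 to 7 with each library left out. In mut-FTO against Vector, where it was 7, it was 3 with library size alone, 21 with DESeq2, 11 with limma-voom, 0 in the fit of the 6 libraries compared and 39 without both libraries, and 0 to 42 with each left out. In FTO against mut-FTO, where it was 0, it was 2 in the fit of 6 libraries and 0 in all fits with a library left out. Replicate numbers gave no sign of pairing (correlations of same-numbered libraries -0.127 to 0.106, 4 of 18 best with their own number); with the replicate block the counts were 0, 3 and 0. Relative to the family, the counts without both libraries were 1 in mut-FTO against Vector and 1 in FTO against mut-FTO, and with each library left out 0 to 6 in FTO against Vector, 0 to 7 in mut-FTO against Vector and 0 to 3 in FTO against mut-FTO. With each library left out, the log2 ratio of summed shares was 0.36 to 0.78 in FTO and 0.34 to 0.76 in mut-FTO against Vector, and -0.046 to 0.091 between them; that of the large to small subunit ratio was -0.10 to -0.048, -0.13 to -0.067 and -0.0083 to 0.057. Some fold changes that did not pass turned sign, and not all of these were near 0. In FTO against Vector RPL36A was -0.64 to 0.58 with each library left out (0.58 without Vector replicate 3) and 0.59 without both libraries, and RPS26 -0.33 to 0.15 (0.15 without Vector replicate 3) and 0.16. RPL36AL was 0.081 with limma-voom, 0.021 with the replicate block, -0.28 to 0.46 with each library left out (0.012 without FTO replicate 1, 0.46 without Vector replicate 3) and 0.47 without both. In mut-FTO against Vector RPL22L1 was -0.65 to 0.16 (0.16 without mut-FTO replicate 2) and 0.048 without both. Among the other fold changes of single named genes, 530 kept their side of the threshold, 63 no longer passed and 20 newly passed, all in the same direction. The cause of these differences was not tested.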
